A study of Sus scrofa with 3 samples.

Results

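The unfolded protein and amino acid stress response was followed through 10 genes, ATF4, DDIT3, XBP1, ERN1, EIF2AK3, ATF6, ASNS, TRIB3, PDIA4 and HERPUD1, which were chosen by name. Of these, 9 were listed under their own symbol among the 22826 genes of type mRNA, and 8 of the 9 were above 0. RNA-Seq measured them in visceral adipose tissue, taken as retroperitoneal fat, of male Chinese Wuzhishan miniature pigs aged 6 to 7 months when obtained. The pigs were first acclimated for several weeks on standard, cholesterol-free feed and then divided into groups. They were afterwards kept for 12 weeks on HFC chow, a diet rich in fat and cholesterol. Intact males (IM) had sham incisions only, castrated males (CM) lost their testes, and castrated males with testosterone replacement (CMT) also received weekly intramuscular testosterone propionate at 10 mg/kg in corn oil. No library used here came from pigs on a normal diet, so the diet was common to all libraries. Equal amounts of total RNA of several pigs per group, 4 by the methods and 4 to 6 by the labels, made up 1 library. With 1 library per group there are no replicates, so no difference between the groups could be set against the spread between pigs.

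Unfolded proteins in the endoplasmic reticulum (ER) are sensed by the membrane proteins IRE1, PERK and ATF6, encoded by ERN1, EIF2AK3 and ATF6. IRE1 splices the XBP1 mRNA into the form that encodes an active transcription factor, PERK phosphorylates the translation factor eIF2 so that ATF4 mRNA is translated more, and ATF6 is cut in the Golgi to release its own factor. Shortage of amino acids reaches ATF4 through another eIF2 kinase, GCN2. In fat, the response is known for its link with obesity, secretion of adipokines and insulin resistance. Much of this control acts on splicing, translation and cleavage, which values per gene do not show.

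Levels were deposited as UQRPKM, reads per kilobase of gene divided by the library's upper quartile rather than its total. A level in UQRPKM can be compared between genes because it is per length. The number of reads behind each value was recovered, since each value was a whole number of steps of 1 read. Recovered reads on mRNA genes came to 14844063 (IM), 13582288 (CM) and 13449107 (CMT). Each interval below is a 95% interval from these reads (exact Clopper-Pearson for ratios, exact Poisson for levels) and covers counting error only. The adipocyte markers ADIPOQ, PLIN1, CIDEC and LIPE lay between 8438 UQRPKM (LIPE in CMT) and 74928 UQRPKM (ADIPOQ in IM), and so were plentiful in the labelled tissue. Of the other adipocyte markers, PCK1 had 5402 UQRPKM (IM), 3377 (CM) and 5326 (CMT), and LEP had 167, 502 and 156. FABP4 and LPL were not listed. The libraries also held markers of other tissues. The 8 listed hepatocyte markers summed to 2553 UQRPKM (IM), 8822 (CM) and 1735 (CMT), but APOA1 made up most of the sum in IM and CMT and was highest in IM, with 2539, 2339 and 1714 UQRPKM. The other 7 were at 10 UQRPKM or less in IM and CMT and all higher in CM, ALB for one at 2.61, 2910 and 4.00 UQRPKM. The 8 listed skeletal muscle markers summed to 79.6, 65.9 and 5894 UQRPKM in the same order.

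None of the 8 measurable genes differed by 1.5-fold between any pair of libraries. The largest difference was that of XBP1, which was 29.1% higher in CMT than in IM. In CM against IM, 0 of 8 genes were higher and 0 lower by 1.5-fold, compared with 8.38% and 10.4% of mRNA genes that reached 1 UQRPKM in both. In CMT against CM the background was 9.53% higher and 9.97% lower, and in CMT against IM it was 8.81% and 11.9%, again with 0 of 8 genes on either side. Genes with few reads pass such a fold more easily. Among mRNA genes with 100 reads or more in both libraries, as all 8 genes had, 5.47% passed it either way in CM against IM, 5.87% in CMT against CM and 7.59% in CMT against IM. With a background this low, 0 of 8 does not set these genes apart from others.

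**Figure D1:**
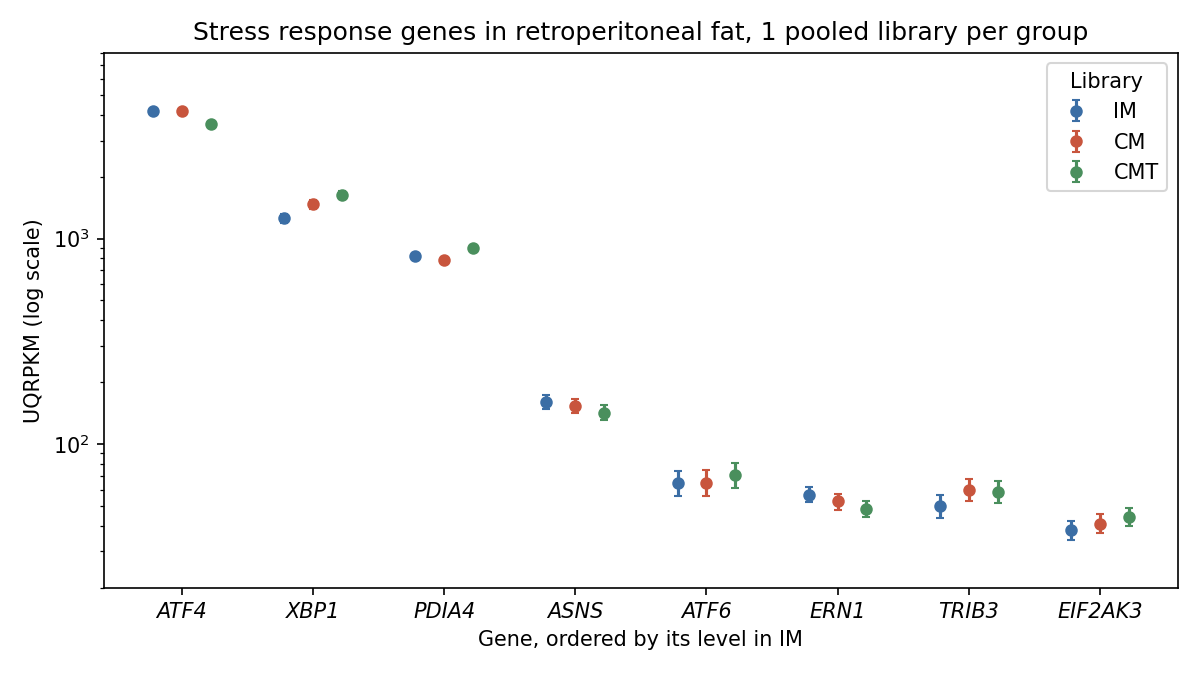
UQRPKM on a log axis for the 8 stress response genes above 0 in the IM, CM and CMT libraries, 1 point per pooled library, with bars for the exact Poisson 95% interval of the reads (counting error only). ATF4 lies at 3613 UQRPKM or more in all libraries, the sensors ERN1, EIF2AK3 and ATF6 lie at 70.4 UQRPKM or less, and for every gene the points of the 3 libraries lie close together.

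The genes differed far more from each other than between libraries. In every library the order from the top was ATF4, XBP1, PDIA4 and ASNS, with intervals that did not overlap. ATF4 stood above 98.5% of the mRNA genes detected in any library, and XBP1 above 95.7% of them in IM. ATF6 came next in each library but overlapped with the gene after it, which was ERN1 in IM and TRIB3 in both castrated libraries. EIF2AK3 was the lowest throughout, although in CMT its interval met that of ERN1. The sensors and TRIB3 thus formed a low group whose inner order was mostly within counting error.

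Among the sensors, ERN1, which encodes the kinase and RNase IRE1, had 56.7 UQRPKM (IM), 52.5 (CM) and 48.4 (CMT), from 548, 484 and 459 reads. It was highest in the intact and lowest in the testosterone-treated library. The log2 ratio was -0.11 in CM against IM (interval -0.29 to 0.07), -0.12 in CMT against CM (interval -0.30 to 0.07) and -0.23 in CMT against IM (interval -0.41 to -0.04). EIF2AK3, which encodes the eIF2 kinase PERK, ran the other way with 37.9, 41.0 and 44.2 UQRPKM from 332, 342 and 379 reads. Its log2 ratio was 0.11 in CM against IM (interval -0.11 to 0.33), 0.11 in CMT against CM (interval -0.11 to 0.32) and 0.22 in CMT against IM (interval 0.0040 to 0.44). ATF6, the sensor that becomes a transcription factor, had 64.3, 64.7 and 70.4 UQRPKM from 193, 185 and 207 reads. The log2 ratio of ATF6 was 0.0083 in CM against IM (interval -0.29 to 0.31), 0.12 in CMT against CM (interval -0.17 to 0.42) and 0.13 in CMT against IM (interval -0.16 to 0.42). All 3 intervals included 0, so no difference in ATF6 was detectable at this depth.

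ATF4 and XBP1, both transcription factors, were the most abundant genes of the set. XBP1, the factor whose mRNA is spliced by IRE1, had 1259 UQRPKM (IM), 1466 (CM) and 1625 (CMT), from 1504, 1670 and 1903 reads. Its level was lowest in the intact and highest in the testosterone-treated library, opposite in order to ERN1. The log2 ratio of XBP1 was 0.22 in CM against IM (interval 0.12 to 0.32), 0.15 in CMT against CM (interval 0.05 to 0.24) and 0.37 in CMT against IM (interval 0.27 to 0.47). Plasma cells are rich in XBP1, and the 10 listed plasma cell and B cell markers summed to 176 UQRPKM (IM), 145 (CM) and 183 (CMT). Among them IGJ, the antibody joining chain, had 36.0, 39.9 and 61.0 UQRPKM, MZB1 had 39.8, 19.7 and 30.3, and TNFRSF17, a plasma cell receptor, had at most 3 reads in a library. All hepatocyte markers but APOA1 were high in CM and the skeletal muscle markers were high in CMT. The part of any of these cells in the level of XBP1 was not tested.

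ATF4, the factor through which eIF2 phosphorylation acts on amino acid genes, had 4181 UQRPKM (IM), 4184 (CM) and 3613 (CMT), from 8721, 8317 and 7384 reads. The IM and CM libraries were nearly equal and the CMT library was lower. The log2 ratio was 0.00099 in CM against IM (interval -0.04 to 0.04), -0.21 in CMT against CM (interval -0.26 to -0.17) and -0.21 in CMT against IM (interval -0.26 to -0.17). The 6 listed adipocyte markers were also lowest in sum in CMT, with 126507 UQRPKM (IM), 118347 (CM) and 102988 (CMT), and none of them was at 0. ADIPOQ made up most of that sum, with 74928, 69193 and 63873 UQRPKM. PCK1 was lowest in CM instead, with 5402, 3377 and 5326 UQRPKM, and LEP differed little between IM (167) and CMT (156). The skeletal muscle markers given above were high in CMT alone. In pooled tissue, fewer cells of a type and less RNA per cell cannot be told apart, and the part of these cells in the ATF4 level was not tested.

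DDIT3, which encodes CHOP, the factor tied to cell death under lasting stress, was listed at 0 in all 3 libraries. In the gene order of the RefSeq table, which describes a later build of the pig genome than the values, DDIT3 overlaps MARS, the cytosolic methionyl-tRNA synthetase gene. MARS was also listed at 0 in every library, as were the next genes on either side, ARHGAP9 and MBD6. Of the 20 nearest protein-coding genes in the values, 10 on each side, 12 were at 0 in all libraries. Protein synthesis in every cell needs MARS, so the value of DDIT3 is given only as a listing at 0, and no fold is given. Over all mRNA genes, 26.2% were at 0 in every library.

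HERPUD1, an ER membrane protein of the degradation machinery, was not listed under its symbol. The RefSeq table gives the symbol HERPUD1 to the gene ID that the values carry as LOC100622579, and that entry was at 0 in all 3 libraries. Its nearest listed neighbours NUP93 and NLRC5 were at 0 as well. Of the 20 nearest listed genes 4 were at 0, beside 26.2% of all mRNA genes, which does not set this stretch apart. NUP93 encodes a core protein of the nuclear pore, so this 0 is likewise only a listing. The related gene HERPUD2 was measured, with 44.5 UQRPKM (IM), 48.2 (CM) and 61.0 (CMT).

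The downstream genes of the set differed little between libraries too. ASNS, the asparagine synthetase that ATF4 induces when amino acids are short, had 160 UQRPKM (IM), 152 (CM) and 142 (CMT), from 701, 635 and 609 reads. The log2 ratio of ASNS was -0.07 in CM against IM (interval -0.23 to 0.08), -0.10 in CMT against CM (interval -0.26 to 0.06) and -0.17 in CMT against IM (interval -0.33 to -0.01). TRIB3, a pseudokinase induced by ATF4 and CHOP that binds AKT, had 49.8, 59.7 and 58.3 UQRPKM from 231, 264 and 265 reads. It was lower in the intact library than in both castrated ones, with a log2 ratio of 0.26 in CM against IM (interval 0.0018 to 0.52), -0.03 in CMT against CM (interval -0.29 to 0.22) and 0.23 in CMT against IM (interval -0.03 to 0.49). All hepatocyte markers but APOA1 were also higher in CM than in IM, and their part in the level of TRIB3 was not tested. PDIA4, a disulfide isomerase of the ER lumen, had 827, 789 and 903 UQRPKM from 3521, 3202 and 3769 reads. Its log2 ratio was -0.07 in CM against IM (interval -0.14 to 0.0019), 0.20 in CMT against CM (interval 0.13 to 0.26) and 0.13 in CMT against IM (interval 0.06 to 0.19).

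**Figure D2:**
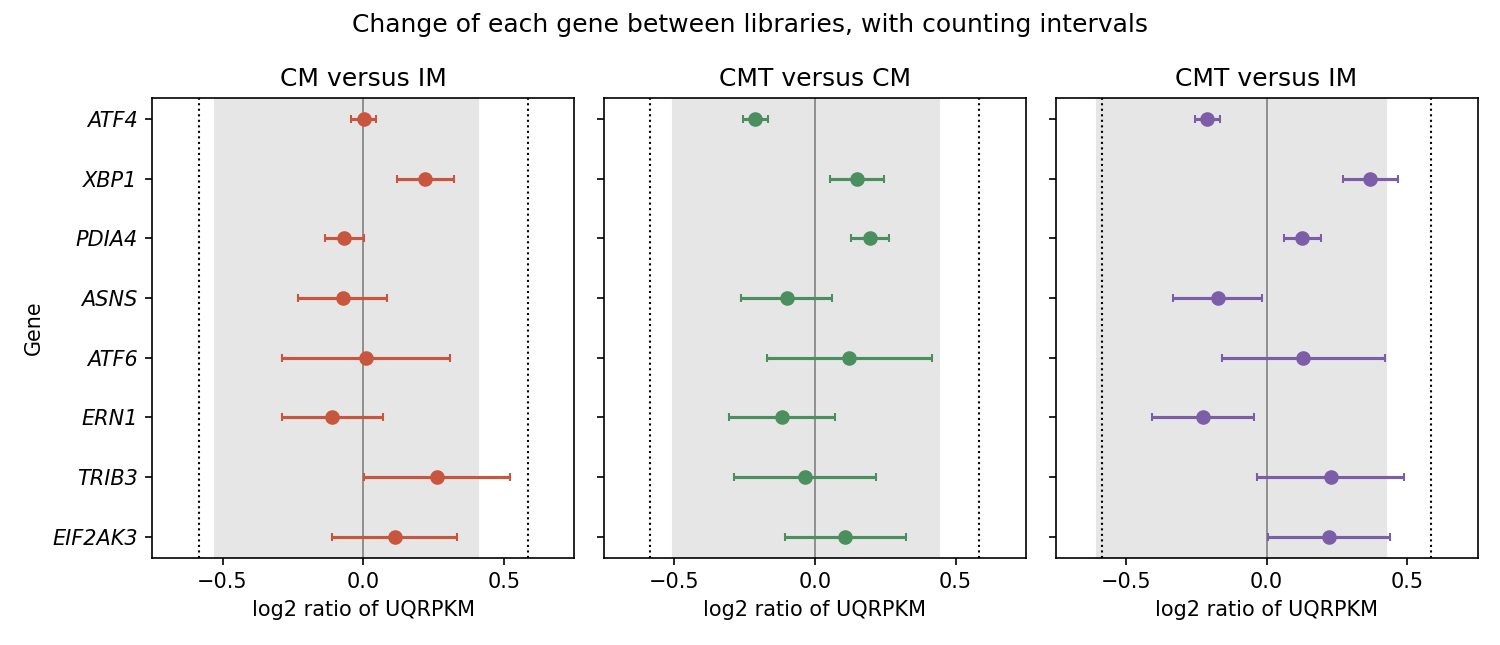
Log2 ratio of UQRPKM for each of the 8 genes in CM against IM, CMT against CM and CMT against IM, with bars for the exact Clopper-Pearson 95% interval (counting error only). Grey marks the range from the 5th to the 95th percentile of mRNA genes with 100 reads or more in both libraries and dotted lines mark 1.5-fold, and every point lies inside both.

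Intervals from reads alone are narrow for abundant genes, and many genes lie outside them. In CM against IM the interval excluded 0 for 2 of the 8 genes, XBP1 and TRIB3, compared with 53.0% of mRNA genes with 100 reads or more in both libraries. In CMT against CM it did so for 3 of the 8, ATF4, XBP1 and PDIA4, compared with 46.1%. In CMT against IM it did so for 6 of the 8, all but ATF6 and TRIB3, compared with 55.9%. After scaling by the median ratio of mRNA genes, ERN1 and ASNS no longer did so in CMT against IM while TRIB3 did, which left 5 of 8, and ATF4 joined XBP1 and TRIB3 in CM against IM. With an exact binomial test and Benjamini-Hochberg adjustment over all mRNA genes, EIF2AK3 (adjusted p = 0.11) and ASNS (adjusted p = 0.082) missed 0.05 in CMT against IM, as did TRIB3 (adjusted p = 0.12) in CM against IM. Such intervals say that a pair of libraries differed, not that the conditions did. These comparisons share libraries, so their counts are not independent.

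The typical size of a difference was taken from the same mRNA genes. The median absolute log2 ratio was 0.19 in CM against IM, 0.16 in CMT against CM and 0.21 in CMT against IM. XBP1 in CMT against IM exceeded 76.6% of these genes in absolute log2 ratio, which was the highest share that any of the 8 genes reached. TRIB3 in CM against IM exceeded 65.0% of them, and ATF4 in CMT against CM 61.3%. Every stress response gene therefore lay inside the spread seen among these genes. Over the 8 genes the median log2 ratio was 0.0047 in CM against IM, 0.04 in CMT against CM and 0.13 in CMT against IM, while the median of all mRNA genes that reached 1 UQRPKM in both libraries was -0.06, -0.02 and -0.08.

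**Figure D3:**
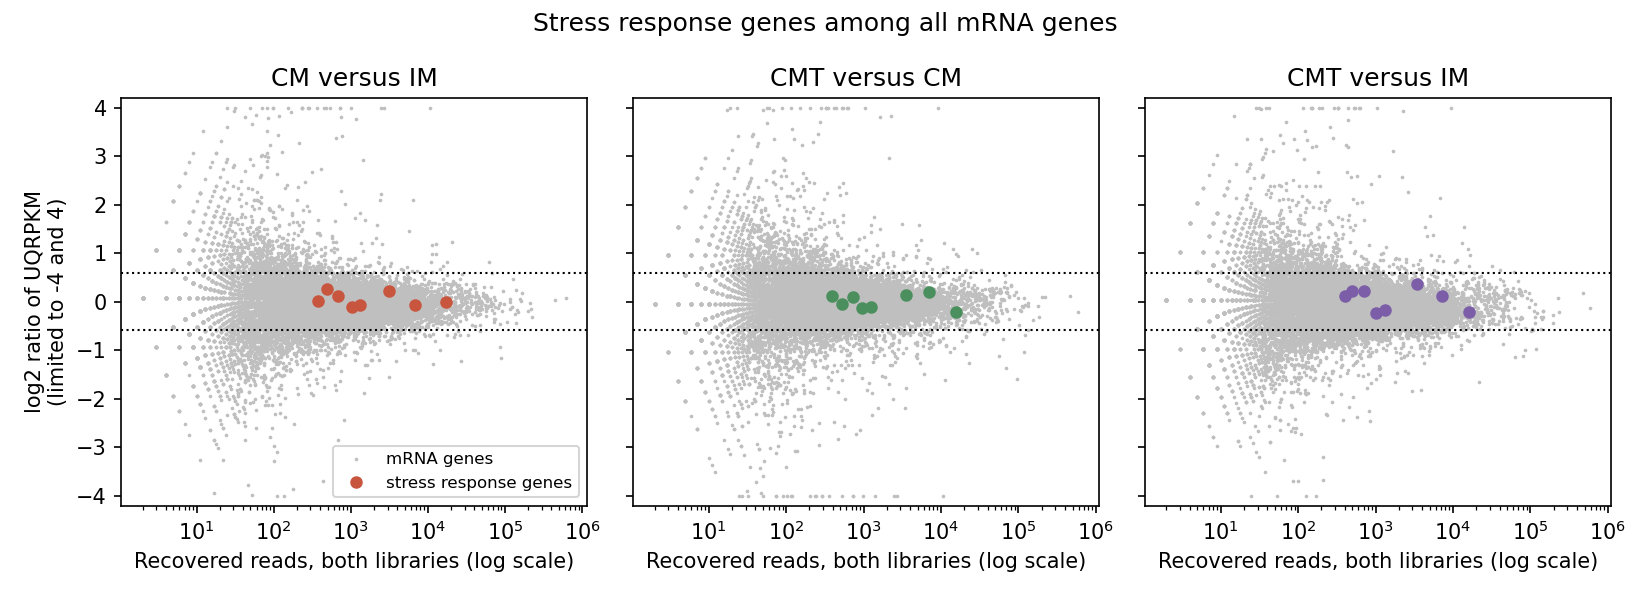
Log2 ratio of UQRPKM against the recovered reads of both libraries (log axis) for mRNA genes that reached 1 UQRPKM in both (grey) and the 8 stress response genes (colour), with ratios beyond -4 and 4 drawn at those limits and dotted lines at 1.5-fold. The grey cloud widens towards few reads, and the coloured points sit in its dense middle in all 3 comparisons.

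XBP1 had the widest range of the set, and the genes most like it were found by the distance between their pairs of log2 ratios to IM. Over 3 libraries the nearest were TLE3, MAP3K2, KIAA1430, LOX and HSDL1, at distances of 0.0029 to 0.011. A pattern over so few libraries is easily matched, and 227 of 10045 mRNA genes with 50 reads or more in every library lay within 0.1 of XBP1.

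The wider pathways were described by 9 lists with 180 genes, of which 163 were found as mRNA genes and 13 were at 0 in all libraries. In CM against IM, 7 of the 149 genes that reached 1 UQRPKM in both libraries were higher by 1.5-fold and 11 lower, which is 4.70% and 7.38%. CMT against CM had 6 higher and 7 lower of 148, and CMT against IM had 6 higher and 11 lower of 148. These shares, given as a description, lie below those of all mRNA genes above. When ratios were centred on the median of mRNA genes, the split became 8 higher and 7 lower in CM against IM and 8 higher and 9 lower in CMT against IM. Of the list genes with 100 reads or more in both libraries, 6 of 129 passed 1.5-fold in CM against IM, 4 of 127 in CMT against CM and 5 of 127 in CMT against IM. That is 4.65%, 3.15% and 3.94%, beside 5.47%, 5.87% and 7.59% of all mRNA genes with as many reads.

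**Figure D4:**
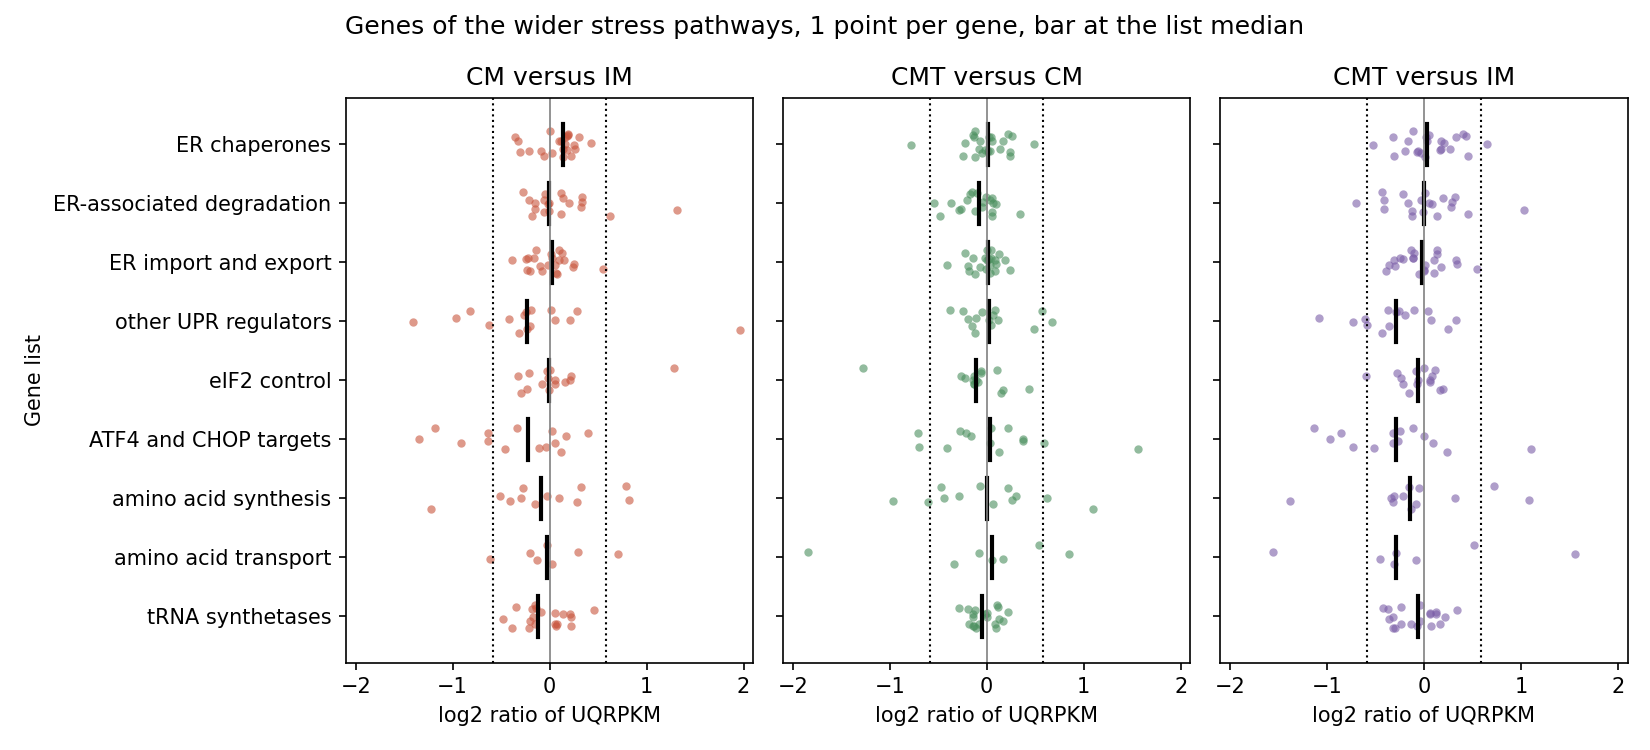
Log2 ratio of UQRPKM for the genes of 9 pathway lists in the 3 comparisons, 1 point per gene that reached 1 UQRPKM in both libraries, with a black bar at each list's median and dotted lines at 1.5-fold. Points of the ER lists and the tRNA synthetases crowd around 0. Those of the ATF4 and CHOP targets and of the amino acid lists spread past the dotted lines. They do so on both sides, except that no ATF4 or CHOP target passes the upper line in CM against IM.

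ER chaperones and disulfide isomerases, which are induced by ATF6 and XBP1, mostly lay within 1.5-fold. Of mRNA genes that reached 1 UQRPKM in both libraries, 8.38% to 9.53% were higher and 9.97% to 11.9% lower by 1.5-fold. Among those with 100 reads or more in both, 5.47% to 7.59% passed it either way. The counts below do not set the list apart from these shares. Of 23 genes with enough signal, 0 passed 1.5-fold in CM against IM, 1 was lower in CMT against CM (SDF2L1, with 25 and 15 reads) and 1 was higher in CMT against IM. The latter was ERO1L, the oxidase that recharges disulfide isomerases, with 113 UQRPKM (IM), 126 (CM) and 176 (CMT) and a log2 ratio of 0.65 (interval 0.41 to 0.89). HSPA5, the main ER chaperone BiP and a standard readout of the response, had 1162, 1244 and 1186 UQRPKM. Its log2 ratio was 0.10 in CM against IM and -0.07 in CMT against CM. HSP90B1, the ER member of the HSP90 family, had 1051, 1195 and 1393 UQRPKM, and thus followed the order of XBP1, with a log2 ratio of 0.41 in CMT against IM. DNAJB9, a cochaperone and XBP1 target, had 63.2, 72.2 and 65.6 UQRPKM. DNAJC3, a cochaperone that inhibits PERK, had 135, 153 and 183, with a log2 ratio of 0.44 in CMT against IM.

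Among 20 genes of ER-associated degradation, 0 were lower and, beside 8.38% of mRNA genes, 2 were higher by 1.5-fold in CM against IM. They were DERL3, a channel component that is also among the plasma cell markers, with 8 and 19 reads, and EDEM1, a mannosidase-like protein that hands misfolded glycoproteins to the degradation machinery, with 50.5 UQRPKM (IM), 77.8 (CM) and 55.6 (CMT). The log2 ratio of EDEM1 in CM against IM was 0.62 (interval 0.19 to 1.06). RNF5, a ubiquitin ligase of the ER membrane, was lower in CMT, with 1060, 954 and 652 UQRPKM and a log2 ratio of -0.70 in CMT against IM (interval -0.81 to -0.60). None of the 22 genes of ER import and early transport passed 1.5-fold in any comparison, with list medians between -0.02 and 0.02, although after scaling by the median ratio SPCS3, a subunit of the signal peptidase, passed it in CM against IM (0.61) and in CMT against IM (0.62). All 20 measured genes of the tRNA synthetase list stayed within 1.5-fold as well, with log2 ratios from -0.48 to 0.46 over the comparisons. Among mRNA genes with 100 reads or more in both libraries, only 5.47% to 7.59% passed it either way. Counts of 0 over lists this short therefore do not set the import and tRNA synthetase genes apart.

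Among other sensors and factors of the unfolded protein response, 4 of 16 were lower by 1.5-fold in CM against IM (CREB3L1, BAX, BBC3 and NFYA) and 1 higher (CREB3L3), with a list median of -0.24, where 10.4% of mRNA genes were lower. In CMT against IM 3 of 15 were lower (CREB3L2, BBC3 and NFYA), with a median of -0.29, where 11.9% of mRNA genes were lower, and in CMT against CM only NFYA passed, being higher. After scaling by the median ratio, BAX (-0.57) and CREB3L2 (-0.53) fell short of 1.5-fold in these comparisons and CREB3L1 (0.59) passed it in CMT against CM. BBC3 and NFYA had 41 reads or fewer in every library. CREB3L1, an ER-bound factor that drives collagen secretion, had 371 UQRPKM (IM), 210 (CM) and 311 (CMT), and its log2 ratio in CM against IM was -0.82 (interval -0.96 to -0.68). CREB3L2, its close relative, had 419, 314 and 275 UQRPKM and a log2 ratio of -0.61 in CMT against IM. BAX, which permeabilises mitochondria in apoptosis, had 187, 121 and 125 UQRPKM. CREB3L3, an ER-bound factor of liver and intestine that was singled out after its values were seen, had 11 reads (IM), 41 (CM) and 1 (CMT). It was high in CM, as were all hepatocyte markers but APOA1, of which SERPINA1 and CYP2E1 were at 0 in IM and CMT, and the part of liver RNA in its value was not tested.

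Most of the 15 measured genes that set eIF2 activity lay within 1.5-fold in all comparisons. In CM against IM 1 was higher and 0 lower, where 8.38% and 10.4% of mRNA genes were. CMT against CM had 0 higher and 1 lower, where 9.53% and 9.97% of mRNA genes were. CMT against IM also had 0 higher and 1 lower, where the shares were 8.81% and 11.9%. These counts do not set the list apart. EIF2S2, which encodes eIF2 beta, passed 1.5-fold in both comparisons with CM, with 45, 104 and 44 reads in IM, CM and CMT. Its log2 ratio was 1.28 in CM against IM (interval 0.76 to 1.82) and -1.28 in CMT against CM. PPP1R15A, encoding the stress-induced phosphatase subunit GADD34 that restores translation, had 216, 172 and 143 UQRPKM. It was lowest in CMT, with a log2 ratio of -0.59 in CMT against IM (interval -0.76 to -0.43) that fell short of 1.5-fold after scaling by the median ratio (-0.51).

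Several stress-induced targets and partners of ATF4 and CHOP passed 1.5-fold between libraries, all from far fewer reads than ATF4 had. Of 14 genes, 5 were lower by 1.5-fold (ATF3, CEBPB, VEGFA, SESN2 and FGF21) and 0 higher in CM against IM, where 10.4% of mRNA genes were lower. After scaling by the median ratio, CEBPB (-0.57) and SESN2 (-0.58) fell short of 1.5-fold there, which left 3 lower. In CMT against CM, 2 were higher (CHAC1 and VEGFA) and 2 lower (STC2 and BATF2), where 9.53% and 9.97% of mRNA genes were. In CMT against IM, CHAC1 was higher and 4 were lower (ATF3, CEBPB, FGF21 and BATF2), where 8.81% and 11.9% of mRNA genes were. FGF21 had 8 reads or fewer in a library, and the other genes are described next or had 129 reads or fewer. ATF3, a repressor induced by many stresses and carried in the values as LOC100738612, had 157 reads (IM), 66 (CM) and 70 (CMT). Its log2 ratio was -1.18 in CM against IM (interval -1.62 to -0.76) and -1.14 in CMT against IM. CEBPB, a partner of ATF4 and CHOP that also acts early in adipogenesis, had 108, 69.7 and 59.9 UQRPKM and a log2 ratio of -0.86 in CMT against IM. VEGFA, the angiogenic factor, had 1083, 576 and 867 UQRPKM and a log2 ratio of -0.91 in CM against IM. SESN2, an inhibitor of mTORC1 signalling, had 32.3, 20.8 and 26.8 UQRPKM and a log2 ratio of -0.64 in CM against IM.

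CHAC1, the glutathione-degrading enzyme that ATF4 and ATF3 induce, was the only gene of that list higher by 1.5-fold in CMT against IM. It had 37.7 UQRPKM (IM), 27.5 (CM) and 80.9 (CMT), from 95, 66 and 200 reads, and so was highest in the library where ATF4 was lowest. The log2 ratio of CHAC1 was 1.56 in CMT against CM (interval 1.15 to 1.98) and 1.10 in CMT against IM (interval 0.74 to 1.47). The skeletal muscle markers were also high in CMT, with 7 of the 8 detected and CKM at 0, and their part in the value of CHAC1 was not tested.

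Genes of amino acid synthesis differed in both directions. In CM against IM, 2 of 12 were higher and 1 lower by 1.5-fold, where 8.38% and 10.4% of mRNA genes were. CMT against CM had 2 higher and 2 lower, where the shares of mRNA genes were 9.53% and 9.97%. CMT against IM had 2 higher and 1 lower, where they were 8.81% and 11.9%. Counts over so few genes are given as a description. GLUL, the glutamine synthetase, was by far the most abundant and had 14136.5 UQRPKM (IM), 6069 (CM) and 12942 (CMT). Its log2 ratio was -1.22 in CM against IM (interval -1.26 to -1.18) and 1.09 in CMT against CM, while CMT and IM differed by -0.13. GPT2, the mitochondrial alanine transaminase and an ATF4 target, had 133, 100 and 51.1 UQRPKM, with a log2 ratio of -1.38 in CMT against IM (interval -1.58 to -1.19). CTH, which makes cysteine from cystathionine, and MTHFD2, a mitochondrial folate enzyme, were lowest in IM with 38 and 57 reads. Their log2 ratios in CM against IM were 0.82 (interval 0.22 to 1.44) and 0.79 (interval 0.30 to 1.29). In CMT against IM they were 1.09 (interval 0.51 to 1.68) and 0.72 (interval 0.23 to 1.22). In serine synthesis, PHGDH had 576, 566 and 464 UQRPKM and PSAT1 had 2122, 2589 and 1699. PSAT1 was highest in CM, with a log2 ratio of -0.61 in CMT against CM (interval -0.68 to -0.54) that became -0.58 after scaling by total UQRPKM, just short of 1.5-fold.

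Of 7 measured amino acid transporters, 1 was higher and 1 lower by 1.5-fold in each comparison. Among mRNA genes, 8.38% to 9.53% were higher and 9.97% to 11.9% lower, and 7 genes are too few to set against these shares. SLC38A1, which carries glutamine, was the one higher each time, from 9 reads (IM), 14 (CM) and 26 (CMT). SLC6A9 was the one lower in CMT against CM and in CMT against IM, from only 6 reads (IM), 7 (CM) and 2 (CMT). SLC7A1, a carrier of arginine and lysine, was the one lower in CM against IM, with 53 and 33 reads and an interval of its log2 ratio from -1.29 to 0.04, and it fell short of 1.5-fold after scaling by the median ratio. Transporters with more reads stayed within 1.5-fold, among them SLC1A5, a glutamine carrier, with 1245, 1078 and 1017 UQRPKM. SLC38A2 came nearest to it, with 206, 193 and 289 reads and a log2 ratio of 0.54 in CMT against CM (interval 0.27 to 0.81). In CMT against IM its log2 ratio was 0.52 (interval 0.25 to 0.78), which passed 1.5-fold after scaling by the median ratio (0.60).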

How the data were processed

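The deposited RPKM values (UQRPKM) of 3 libraries were analysed. Per the methods, the authors mapped filtered reads with MapSplice to Sscrofa 10.2 and scaled reads per kilobase by each upper quartile. The counting tool and its handling of overlapping genes and strand are not given in the sources used here. Reads were recovered in Python 3.11.15 (scipy 1.17.1). Upper quartiles of 149, 142 and 146 for IM, CM and CMT came from the commonest ratios between libraries, and each gene took the shortest length, up to 120000 bases, that gave whole reads within a relative tolerance of 1e-08. This held for 100% of the 20838 genes above 0. A common factor in a gene's reads is lost, so reads can be too low and intervals too wide. The recovery, intervals and binomial test were tested on simulated data.

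A gene was called changed at 1.5-fold with at least 1 UQRPKM in both libraries, the study's thresholds without its test, because 1 library per group allows tests of libraries but not of conditions. Ratios carry no pseudocount. All members were named. List genes were named at 1.5-fold with 50 reads or more in a library, up to 4 per list by size, besides a fixed set (HSPA5, HSP90B1, DNAJB9, DNAJC3, PPP1R15A, ATF3, CHAC1, SESN2, PSAT1, PHGDH). Others named with few reads (SDF2L1, DERL3, SLC38A1, SLC6A9) were chosen after their values were seen. So were those given as called but outside this rule (BBC3, NFYA, FGF21, STC2, BATF2, CREB3L3), HERPUD2, SPCS3, SLC1A5 and SLC38A2. The members and lists were chosen with earlier results of these data known. Absent symbols were sought by RefSeq gene ID, which found 12 list genes. No coordinates are given because the gene table describes another build, and no sequences were at hand.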

Additional observations from a re-analysis of the deposited data

How the results depend on the processing

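The count of 0 changed genes among the 8 was the same in all 3 comparisons with a fold of 2, no minimum UQRPKM, at least 20 reads over both libraries, a pseudocount of 1, scaling by total UQRPKM, scaling by the median ratio, and an exact binomial test with Benjamini-Hochberg adjustment added. None of their 24 log2 ratios changed sign under a pseudocount of 1 or the other scalings. Scaling by the median ratio of mRNA genes added 0.06, 0.02 and 0.08 to the ratios of CM against IM, CMT against CM and CMT against IM, which put ATF4 at 0.06 in CM against IM and at -0.13 in CMT against IM, and PDIA4 at 0.21 in CMT against IM, each outside its counting interval. Over the pathway lists, a fold of 2 left 3 higher and 4 lower genes in CM against IM, 2 and 2 in CMT against CM, and 4 and 4 in CMT against IM. The binomial test, which compares libraries and not conditions, left 5 higher and 9 lower genes, 4 and 4, and 5 and 8 in the same order. No library could be left out, since each group has 1, and no paired analysis was possible because the labels give no replicates. The background of genes with 100 reads or more and the count of intervals that exclude 0 under other scalings and the adjusted binomial test were chosen after seeing the data. The binomial test passed 1 of the 8 genes in CM against IM, 3 in CMT against CM and 4 in CMT against IM, where the intervals excluded 0 for 2, 3 and 6. Depth limits ATF6 most among the 8 genes, at 185 to 207 reads per library, and then TRIB3, at 231 to 265.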

Other observations

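Other tissues that lie near retroperitoneal fat were followed by markers as well. Of 5 adrenal cortex markers, CYP11A1 and CYP17A1 were at 0 in all libraries and CYP21A2 had at most 1 read. HSD3B1 had 336 UQRPKM (IM), 592 (CM) and 369 (CMT) and was highest in CM, while STAR was lowest there, with 25.3, 22.7 and 27.6 UQRPKM. The 3 listed pancreas markers had at most 1 read each in a library. The 8 listed macrophage markers summed to 1061 UQRPKM (IM), 1228 (CM) and 953 (CMT), with CD163 at 0 throughout. They did not move together. CSF1R was highest in IM, with 285, 246 and 221 UQRPKM. The other detected markers were highest in CM by unequal amounts, from CD14 with 390, 395 and 339 UQRPKM to EMR1 with 45.6, 93.6 and 30.6.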
